A study of Mus musculus with 4 samples.

Results

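The proteasome genes of the mouse oocyte were followed in RNA sequencing libraries of denuded oocytes, that is, oocytes stripped of their cumulus cells. Members were all rows of the table whose gene name is Psma, Psmb, Psmc, Psmd, Psme, Psmf or Psmg with a number, which gave 48 of 26631 rows. The donors were wild type mice of the C57BL/6 strain, aged 24 days after birth, in both groups. Their oocytes were treated with the solvent DMSO as control (2 libraries, control replicates 1 and 2) or with HDACi 4b, a small molecule that inhibits the deacetylases HDAC1 and HDAC3 (2 libraries, HDACi 4b replicates 1 and 2). The labels give neither dose nor duration for these oocytes, nor the number of animals or oocytes behind a library. Nothing in them makes the replicates separate cultures, so the p-values reflect the spread among these libraries alone, and that spread may be technical.

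The proteasome is the protease that degrades proteins tagged with ubiquitin. Its core particle (20S) is a barrel of outer alpha rings and inner beta rings, with the active sites on 3 of the beta subunits. The regulatory particle (19S) caps the barrel, with a ring of ATPases that unfolds the substrate and non-ATPase subunits that bind ubiquitin or remove it. Dedicated chaperones assemble both particles, and alternative activators and an inhibitor bind the core. In the oocyte the proteasome is known for destroying cyclin B and securin at the meiotic divisions, and the fully grown oocyte works from stored mRNA, being nearly silent in transcription.

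The libraries held 13478189 to 14903547 reads, a total recovered from the deposited values, and between 9015 and 10027 genes reached 1 RPKM, a read number adjusted for exon length and library depth. All 10 oocyte markers examined were above 1 RPKM on average and their summed level was 7204 to 9080 RPKM. The extraction note speaks of ovaries, so markers of other cells were examined too. Of 10 granulosa and cumulus markers 3 reached 1 RPKM on average and the sum was 7.59 to 9.68 RPKM. The 3 were Cyp19a1 at 3.03 to 3.49 RPKM, Nr5a2 at 2.27 to 3.52 RPKM and Kitl at 1.44 to 2.33 RPKM. Among the others, Fshr was at 0.226 to 0.444 RPKM, Inha at 0.0481 to 0.227 RPKM and Foxl2 at 0 in 3 of 4 libraries. None of the 8 theca and stroma markers reached 1 RPKM, and their sum was 0.719 to 1.40 RPKM. Immune transcripts were present, with 10 of 15 markers at 1 RPKM or more, and differed most within the HDACi 4b group. The control libraries summed to 135 and 80.0 RPKM. HDACi 4b replicate 1 reached 240 RPKM, whereas the second replicate was at 69.4 RPKM.

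Several subunit genes have processed pseudogenes, copies of the spliced mRNA inserted elsewhere in the genome, and reads from such stretches cannot be assigned to one locus. The stretches below lie in coding exons and were identical over 120 bases between the gene and the copy (0 mismatches, GRCm38, 5′ to 3′ in the sense of the mRNA). They are shown because the levels of Psma3, Psma5 and Psmb5 depend on where their reads were counted, and no letter is in capitals because no base differs.
Psma3 (chr12:70983319-70983438, plus strand) and Gm13835 (chr6:31142523-31142642, minus strand): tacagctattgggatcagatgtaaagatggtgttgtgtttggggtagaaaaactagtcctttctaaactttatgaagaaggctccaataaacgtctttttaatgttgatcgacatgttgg
Psma5 (chr3:108265066-108265185, plus strand) and Gm8394 (chr10:85313665-85313784, plus strand): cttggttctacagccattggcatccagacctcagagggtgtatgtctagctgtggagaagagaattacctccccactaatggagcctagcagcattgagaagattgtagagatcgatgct
Psmb5 (chr14:54614362-54614481, minus strand) and Gm3375 (chr7:3181599-3181718, plus strand): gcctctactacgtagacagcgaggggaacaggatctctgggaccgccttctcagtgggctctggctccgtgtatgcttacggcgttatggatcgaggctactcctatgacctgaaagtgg

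The proteasome as a whole was abundant at the transcript level in both groups. The summed level of the 48 genes was 3542 and 3191 RPKM in control oocytes and 3208 and 3198 RPKM after HDACi 4b. A mean of at least 1 RPKM, the filter for testing, was reached by 41 genes, and the other 7 (Psma8, Psmb9, Psmb10, Psmb11, Psmd13, Psme1 and Psmg2) were below it. The 41 tested genes had a median level of 39.6 RPKM, and 26 of them (63.4%) were among the 1892 highest of the 9461 tested genes. The corresponding share was 40.5% of 79 cytoplasmic ribosomal protein genes and 59.5% of 74 nuclear genes of oxidative phosphorylation. The 48 genes lie on 16 chromosomes. Their order by level was nearly the same in every library, with Spearman coefficients of 0.989 to 0.995 between libraries over the 48 genes, which share depth and gene lengths.

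**Figure D1:**
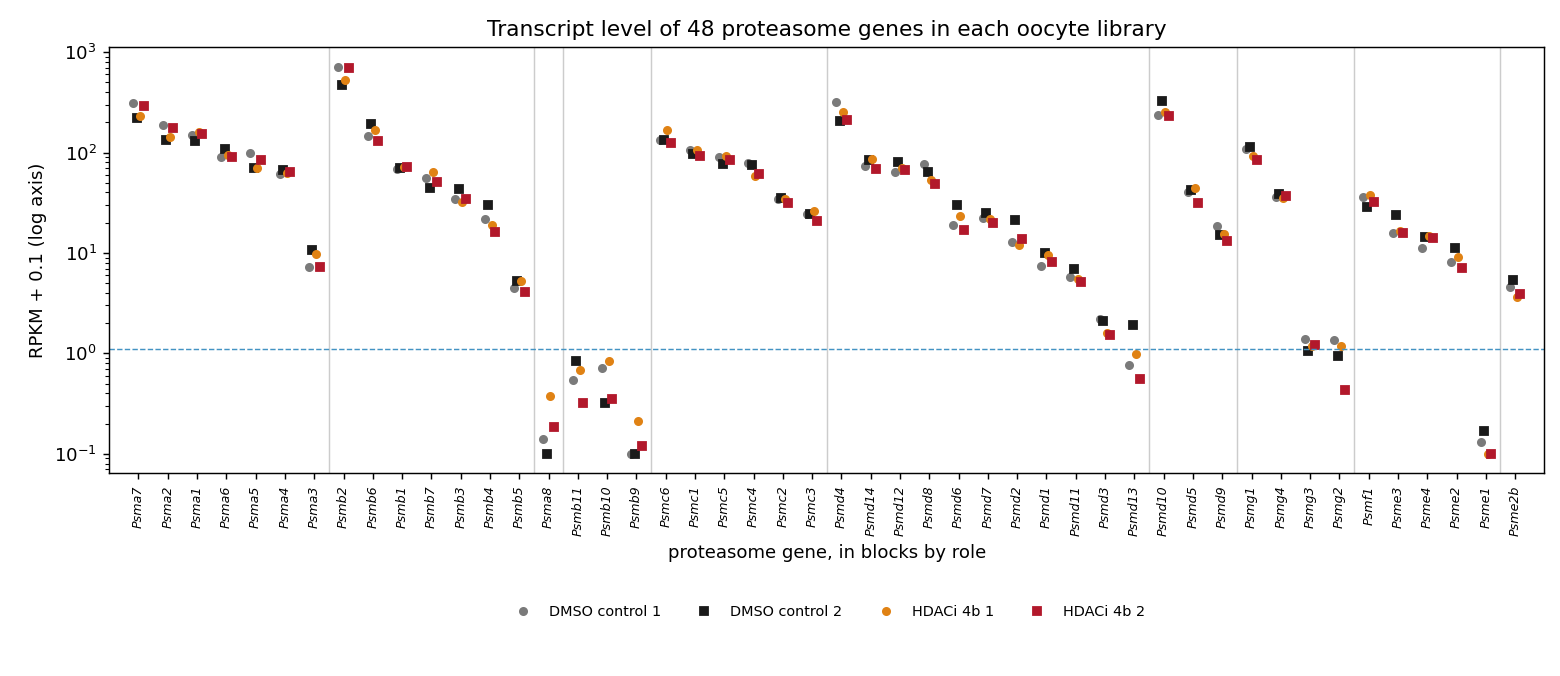
Level of each of the 48 proteasome genes in the 4 libraries, as RPKM + 0.1 on a log axis, in blocks by role from left to right: alpha ring, beta ring, the germline alpha paralogue, the immuno- and thymus-type beta subunits, ATPase ring, non-ATPase subunits, base chaperones, core assembly chaperones, activators and inhibitor, and Psme2b. Grey and black points are the controls, orange and red points HDACi 4b, and the dashed line marks 1 RPKM, under which 7 genes lie on average. Genes differed far more from each other than the libraries did for any tested gene.

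Genes of the same ring differed widely in RPKM although each contributes the same number of copies to the particle. RPKM here divides by all annotated exonic bases of a gene, which may exceed the length of its mRNA. Gaps between genes may therefore partly reflect that length. It was 4967 bases for Psmd3 and 2808 for Psmd4, but 871 for Psmb5 and 1204 for Psmb2. Within the 14 genes of the core rings, Psmb2 was the highest and Psmb5 the lowest in all 4 libraries, 92.8-fold to 172-fold apart. Psmb2 (chr4:126677630-126709714) was at 715 and 474 RPKM in control oocytes and 533 and 687 RPKM after HDACi 4b, so that the highest and the lowest value were both controls. In the alpha ring the mean was between 8.58 RPKM for Psma3 and 264 RPKM for Psma7, and in the ATPase ring between 23.9 RPKM for Psmc3 and 140 RPKM for Psmc6. Among the non-ATPase subunits Psmd4, a ubiquitin receptor, was at 246 RPKM on average and Psmd3, a scaffold subunit of the lid, at 1.76 RPKM. Psmd11, another lid subunit and the next lowest of the tested ones, was at 5.67 and 6.87 RPKM in control oocytes and 5.35 and 5.07 RPKM after HDACi 4b. The ratio of Psmd4 to Psmd3 was 102 to 168 in the 4 libraries.

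The lowest core genes were among those that share sequence with copies. Of the 48 genes, 20 shared no stretch of 50 bases with another annotated gene, 10 shared over 10% of their 50-base stretches, and Psma5, Psmb5 and Psme2b shared over 40%. Psma3 was at 7.19 and 10.5 RPKM in control oocytes and 9.56 and 7.07 RPKM after HDACi 4b, from 396, 551, 555 and 388 reads. Its processed pseudogene Gm13835, all of whose 50-base stretches also occur in Psma3, was at 61.8 and 131 RPKM in control oocytes and 113 and 64.9 RPKM after HDACi 4b. In each library the pseudogene thus carried more reads than the gene, 599, 1206, 1151 and 626, and both were highest in control replicate 2 and HDACi 4b replicate 1. Reads of the pair summed to 995 and 1757 in the controls and 1706 and 1014 with HDACi 4b, so the level given for Psma3 is uncertain.

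Psma5 and its copy followed one another in the same way, with the gene above the copy. Psma5 was at 97.8 and 69.5 RPKM in control oocytes and 70.1 and 83.3 RPKM after HDACi 4b, while Gm8394 was at 26.4 and 17.0 RPKM and at 16.7 and 18.6 RPKM. Both were highest in control replicate 1. For Psmb5, the chymotrypsin-like active subunit, 54.1% of 50-base stretches occur in other genes, 46.8% in Gm3375. The copy held 1 to 7 reads against 49 to 67 reads of Psmb5. Whether reads of this pair were divided or left uncounted was not tested. How reads with several matches were counted is not given in the sources used here. The lookup of shared stretches was made after the levels had been seen.

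**Figure D2:**
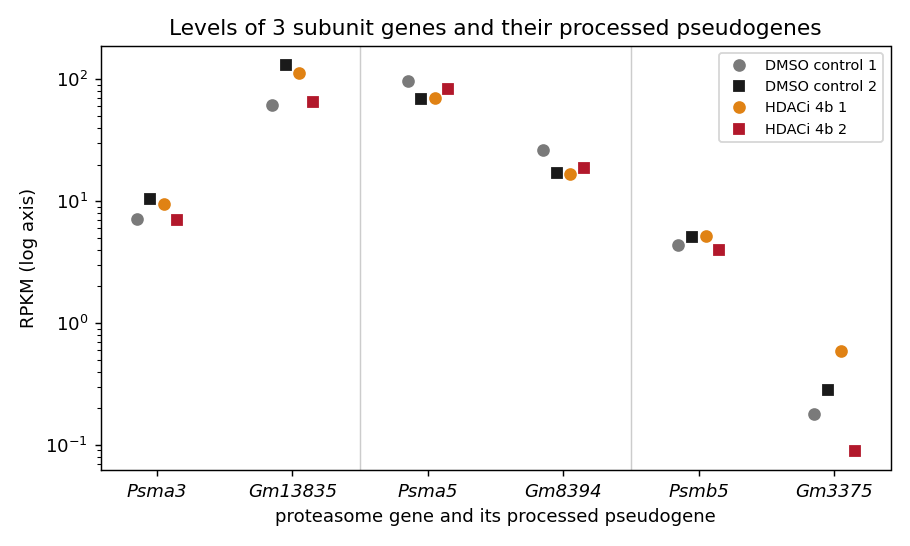
Levels of Psma3, Psma5 and Psmb5, each beside a processed pseudogene with which it shares sequence, in RPKM on a log axis, with 1 point per library (grey and black, controls; orange and red, HDACi 4b). Gm13835 lies above Psma3 in all 4 libraries, whereas Gm8394 and Gm3375 lie below their genes.

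The 3 active sites of the standard core had transcripts at different levels, and none passed the test between the groups. Psmb6, the caspase-like subunit, was at 147 and 192 RPKM in control oocytes and 166 and 131 RPKM after HDACi 4b. Psmb7, the trypsin-like subunit, was at 55.0 and 44.7 RPKM against 63.2 and 51.0 RPKM. Psmb5 was at 4.38 and 5.11 RPKM against 5.16 and 3.99 RPKM. The groups overlapped for all 3 genes. Psmb6 exceeded Psmb5 by 32.2-fold to 37.6-fold and Psmb7 exceeded it by 8.75-fold to 12.8-fold in the 4 libraries, subject to the uncertainty of Psmb5. The fold of HDACi 4b over control after scaling of the libraries was 0.920 for Psmb6 (95% interval 0.662 to 1.28), 1.20 for Psmb7 (0.796 to 1.81) and 1.005 for Psmb5 (0.744 to 1.36).

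The alternative catalytic subunits were nearly absent. Psmb9 and Psmb10 replace standard active subunits in the immunoproteasome of immune and interferon-stimulated cells, and Psmb11 does so in the cortex of the thymus. Psmb9 had 0 reads in both controls, which allows up to 3 reads or 0.0580 RPKM in control replicate 1, for counting error only, and 6 and 1 reads after HDACi 4b. Psmb10 had 15 and 5 reads in control oocytes and 19 and 6 reads after HDACi 4b, or 0.218 to 0.748 RPKM. Both genes were highest in HDACi 4b replicate 1, the library with the highest sum of immune markers (240 RPKM), and in Psmb10 control replicate 1, second in that sum (135 RPKM), came next. The part of immune cells in these reads was not tested, and Psmb9 also overlaps Tap1 on the opposite strand over 5.79% of its exonic bases. Psmb11 had 27 and 42 reads against 37 and 13 reads, with its highest level, 0.734 RPKM, in control replicate 2, where immune markers summed to 80.0 RPKM. Psmb8, the remaining immuno subunit, was not analysed here. Psma8, an alpha subunit of the testis that takes the place of Psma7, was at 0.277 RPKM or less, while Psma7 itself was at 220 RPKM or more. Psma7 was at 312 and 220 RPKM in control oocytes and 231 and 294 RPKM after HDACi 4b.

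The activators that cap the core in place of the regulatory particle were unequal too. Psme1 and Psme2 encode the alpha and beta subunits of the interferon-induced PA28 ring, and Psme1 was nearly absent. Psme1 had 1 and 2 reads in control oocytes and 0 reads in both HDACi 4b libraries, which allows up to 3 reads or 0.0964 RPKM in HDACi 4b replicate 2. Psme2 was at 8.06 and 11.2 RPKM in control oocytes and 9.05 and 6.96 RPKM after HDACi 4b. It shares 28.3% of its 50-base stretches with Psme2b, a near copy at 4.48 and 5.32 RPKM against 3.53 and 3.82 RPKM, and reads of the 2 genes may have been divided between them. Psme3, which forms the nuclear PA28 gamma ring, was at 15.7 and 23.6 RPKM against 16.3 and 15.6 RPKM. Psme4, the activator PA200, was at 11 and 14.3 RPKM against 14.6 and 13.9 RPKM. Psmf1, the inhibitor PI31, was at 36.0 and 28.6 RPKM against 37.4 and 32.0 RPKM.

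Assembly chaperones were found at levels from near 1 RPKM to among the highest of all members. Psmd10, also called gankyrin, assists assembly of the ATPase ring and was at 238 and 328 RPKM in control oocytes and 254 and 229 RPKM after HDACi 4b. The other base chaperones were lower, with Psmd5 at 40.1 and 42.6 RPKM against 44.6 and 31.2 RPKM. Psmd9 was at 18.3 and 15.1 RPKM against 15.4 and 13.1 RPKM, and 25.5% of its exonic bases overlap the noncoding gene Gm26745 on the opposite strand. Of the chaperones of the core, Psmg1 was at 109 and 113 RPKM against 92.8 and 83.6 RPKM and Psmg4 at 35.9 and 38.9 RPKM against 35.4 and 36.8 RPKM. Their partners were much lower in RPKM, although the exonic length divided by was 2893 bases for Psmg3 and 555 for Psmg4. Psmg3, the partner of Psmg4, was at 1.30 and 0.949 RPKM against 1.09 and 1.104 RPKM, and Psmg2, the partner of Psmg1, had 38 and 24 reads against 34 and 10 reads. Psmd13, a lid subunit, was also under the filter, at 0.670 and 1.80 RPKM against 0.894 and 0.462 RPKM, and its exons overlap those of Sirt3 on the opposite strand. Exons of Psmb7 and Psmc3 likewise overlap Nek6 and Slc39a13, and reads of such pairs cannot be told apart without strand.

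The comparison of HDACi 4b with DMSO asks whether the transcripts of the oocyte change with the inhibitor when no cumulus cells surround it. No proteasome gene passed the test. With limma over all 9461 tested genes, 0 of the 41 members were called at a Benjamini-Hochberg adjusted p under 0.05, against 0% of all genes (0 genes), and the smallest adjusted p of a member was 1.0. At an unadjusted p under 0.05 there was 1 member, Psmb4, against 2.87% of all genes (272 genes), and limma-voom on recovered reads also gave 0 genes, with 199 of 7967 genes at an unadjusted p under 0.05. The log2 fold change was above 0 for 19 of the 41 members and below 0 for 22 (46.3% positive against 49.4% of all genes), with a median of -0.01 against -0.003 for all genes. With the levels as deposited 9 of 41 were positive and the median was -0.08, against -0.07 for all genes. The log2 fold changes ran from -0.48 to 0.26. In bulk libraries, fewer cells of a type and less RNA per cell cannot be told apart.

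A test without calls does not show that levels were equal, so the intervals were read as well. The 95% interval stayed inside the 2-fold limits on both sides for 39 of the 41 members (95.1%), against 81.1% of all tested genes. The share was 93.2% for the genes of oxidative phosphorylation and 86.1% for the ribosomal protein genes. It was 96.6% for the genes that work with the proteasome without a Psm name, so it was not particular to the members. The members also had a higher median level than all tested genes, 39.6 against 5.26 RPKM. The exceptions were Psmb2, with a fold of 1.09 (interval 0.576 to 2.06), and Psmd3, with a fold of 0.761 (0.492 to 1.18). Psmd3 was at 2.09 and 2.00 RPKM in control oocytes and 1.499 and 1.43 RPKM after HDACi 4b, from 147 and 134 reads against 111 and 100 reads. For 35 of the 41 members (85.4%) the difference between the replicates of a group was larger than the fold change between groups on the log2 scale, against 82.3% of all tested genes.

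**Figure D3:**
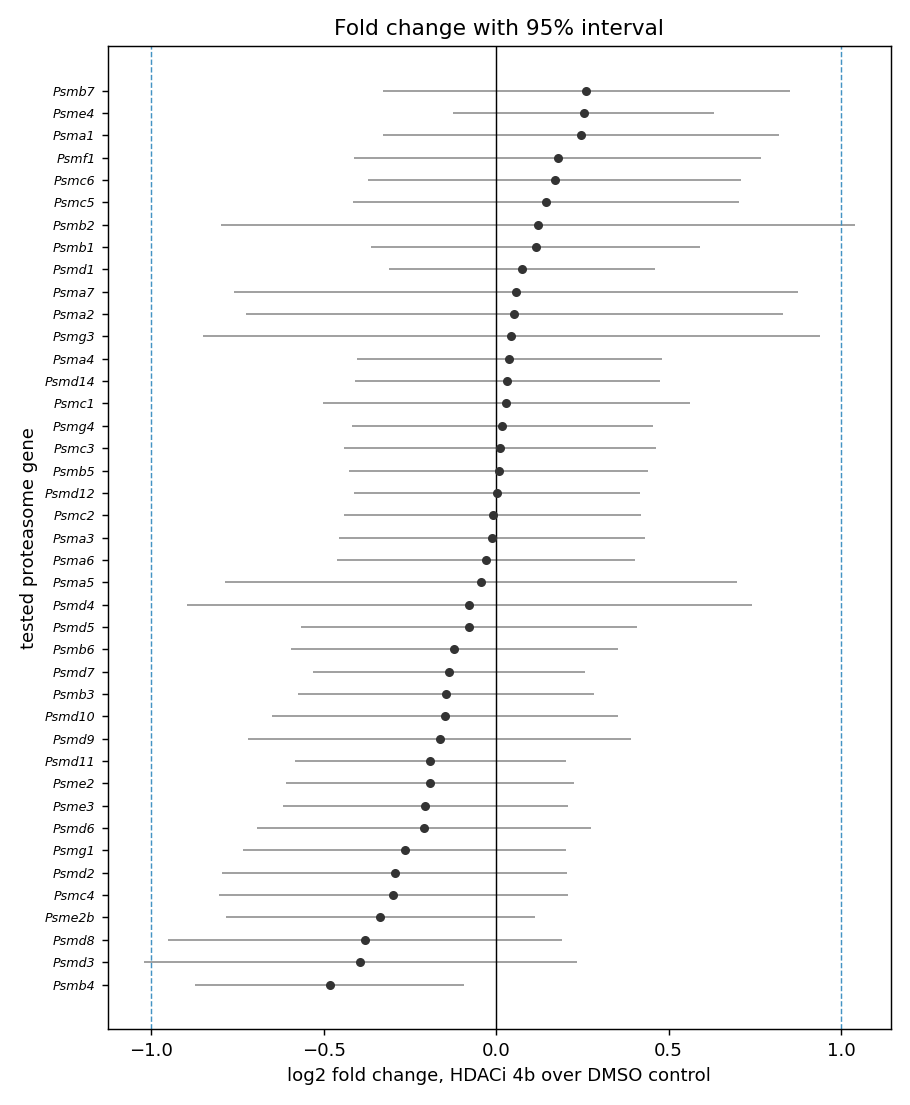
Log2 fold change of HDACi 4b over DMSO control for the 41 tested proteasome genes, ordered by size, with points for the estimates and bars for the 95% intervals of limma. Dashed lines mark 2-fold in either direction. Intervals of all genes other than Psmb4 include 0, and those of Psmb2 and Psmd3 pass a dashed line.

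The members with the smallest p on the lower and the higher side were Psmb4 and Psme4. Psmb4, a noncatalytic beta subunit (chr3:94884093-94886961), was at 21.6 and 29.97 RPKM in control oocytes and 18.7 and 16.1 RPKM after HDACi 4b. Both HDACi 4b libraries lay below both controls, with a log2 fold change of -0.48 (SE 0.16, limma unadjusted p = 0.022, adjusted p = 1.0). Next by p on this side came Psme2b at -0.34 (SE 0.19) and Psmd8, a lid subunit, at -0.38 (SE 0.24), which was -0.08 without control replicate 1 and -0.68 without control replicate 2. Psmd8 was at 76.9 and 63.7 RPKM in control oocytes and 53.8 and 48.9 RPKM after HDACi 4b. The groups did not overlap for either gene. On the other side Psme4 (chr11:30771726-30880361) had a log2 fold change of 0.25 (SE 0.16), Psmb7 of 0.26 (SE 0.25) and Psma1, an alpha ring subunit, of 0.25 (SE 0.24). Psma1 was at 148 and 130 RPKM in control oocytes and 160 and 154 RPKM after HDACi 4b. Each had an adjusted p of 1.0.

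The 250 bases before the RefSeq start of these 2 genes are printed because Psmb4 and Psme4 had the smallest p on the lower and the higher side (GRCm38.p6, 5′ to 3′ in the direction of the gene). The gene coordinates given above are from GENCODE M21, and their starts differ from those of RefSeq and lie inside the printed stretches. Capitals mark matches to the motifs searched. In Psmb4 these were 2 overlapping matches to the TATA box motif TATAAA, on opposite strands of the same stretch, 76 and 78 bases before the start. In Psme4 the match was to the ETS motif CCGGAAG, 53 bases before the start. Whether the stretch in Psmb4 acts as a TATA box was not tested.
Psmb4 (chr3:94886959-94887208, minus strand): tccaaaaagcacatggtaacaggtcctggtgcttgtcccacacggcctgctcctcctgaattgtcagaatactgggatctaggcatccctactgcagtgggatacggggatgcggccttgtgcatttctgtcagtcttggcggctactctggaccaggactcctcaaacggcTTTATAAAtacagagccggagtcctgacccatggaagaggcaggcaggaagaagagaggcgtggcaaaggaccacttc
Psme4 (chr11:30771525-30771774, plus strand): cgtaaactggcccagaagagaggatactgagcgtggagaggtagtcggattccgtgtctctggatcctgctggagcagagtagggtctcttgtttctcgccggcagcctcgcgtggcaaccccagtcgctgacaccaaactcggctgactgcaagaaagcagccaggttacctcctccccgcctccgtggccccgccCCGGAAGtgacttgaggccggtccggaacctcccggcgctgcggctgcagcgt

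RefSeq promoter windows, which run from 250 bases before to 50 bases after the start, were matched for 40 of the 48 members and searched on both strands. The motif CCGGAAG, bound by ETS factors, occurred in 14 of the 40 genes (35%) and in 9.93% of all 27025 genes with a window. The share over all genes was not limited to genes expressed in the oocyte. The members with CCGGAAG were Psma6, Psmc1, Psmc2, Psmc6, Psmd2, Psmd4, Psmd6, Psmd11, Psmd12, Psmd13, Psme3, Psme4, Psmg1 and Psmg3. They lie in the alpha ring, the regulatory particle, the activators and the core chaperones. No beta ring gene among the 40 had the motif, and members without a window were not searched. TGACNNNGC, the core of the element bound by NRF1 (Nfe2l1), the transcription factor that raises proteasome genes when proteasome activity falls, occurred in 6 genes (15%), Psmb5, Psmb6, Psmc6, Psmd9, Psmd12 and Psme4, and in 14% of all genes. CCAAT, the NF-Y box, occurred in 14 genes (35%) and in 41.1% of all. The ZNF143 motif occurred in Psmd10 and Psmd11 (5% against 2.08%), the E-box CACGTG in 4 genes (10% against 8.09%) and TATAAA in Psmb4, Psmd1 and Psmd6 (7.5% against 15.7%). These matches are descriptions of the sequence, and the motifs were chosen with the levels known.

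The controls stood furthest apart in the median of the members. After scaling, control replicate 1 was the highest library for 22 of the 41 members, against 27.5% of all tested genes, and control replicate 2 the lowest for 19, against 30.2%. The median deviation of the members from the mean of the 4 libraries on the log2 scale was 0.15 for control replicate 1 and -0.09 for control replicate 2. It was -0.05 for HDACi 4b replicate 1 and -0.04 for HDACi 4b replicate 2. For all tested genes these medians were 0.02, -0.01, -0.03 and 0.02. The ribosomal protein genes had 0.16 and -0.19 in the controls and -0.11 and 0.17 with HDACi 4b, and the genes of oxidative phosphorylation had 0.09 and -0.16 and then -0.06 and 0.13. The 3 sets were thus high in control replicate 1 and low in control replicate 2. In HDACi 4b replicate 2 the roles of the proteasome differed, with medians of 0.17 for the alpha ring, 0.09 for the 14 core genes, 0.10 for the core chaperones and -0.06 for the regulatory particle.

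**Figure D4:**
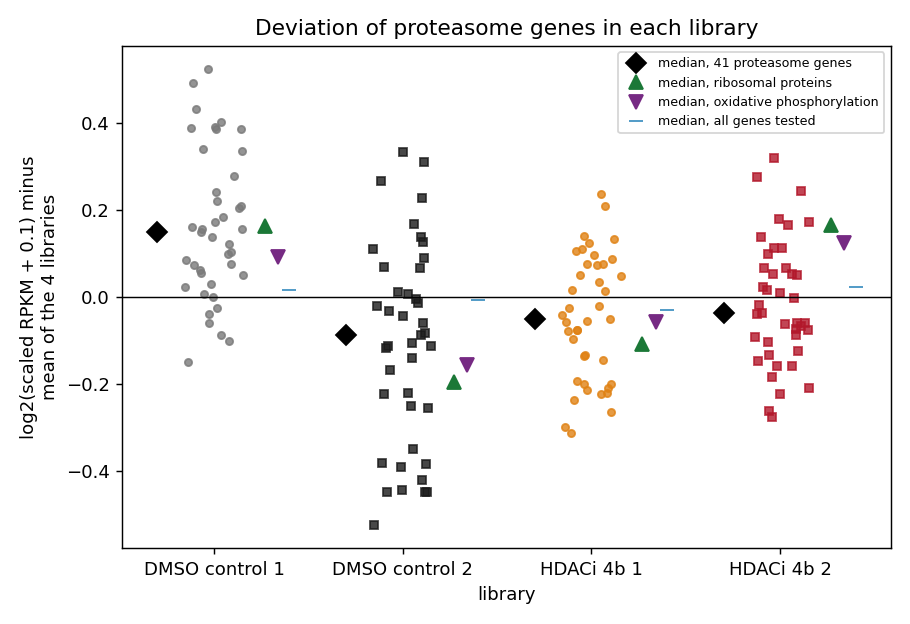
Deviation of each of the 41 tested proteasome genes from its mean over the 4 libraries, as log2(scaled RPKM + 0.1), with 1 point per gene and 1 column per library. Diamonds are the proteasome medians, from 0.15 in control replicate 1 to -0.09 in control replicate 2. Triangles are the medians of the ribosomal (upward) and oxidative phosphorylation (downward) genes, and dashes those of all tested genes.

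The widest spread was found among abundant members. The highest library exceeded the lowest by 1.33-fold in the median member after scaling, and by over 1.5-fold for 14 of 41. The share over 1.5-fold was not counted over all tested genes. Psmd4 had the widest range, 1.96-fold, at 318 and 204 RPKM in control oocytes and 252 and 211 RPKM after HDACi 4b. Psmb2 with 1.90-fold and Psma7 with 1.78-fold came next. Psmg3, with a mean of 1.11 RPKM, had 1.72-fold, whereas the abundant Psmd10 and Psmb6 had 1.16-fold and 1.19-fold. The controls differed by more than 0.8 on the log2 scale for Psma2, Psma5, Psma7, Psmb2 and Psmd4. In Psma2, an alpha ring subunit, the levels were 189 and 134 RPKM in control oocytes and 143 and 174 RPKM after HDACi 4b. The steadiest members were Psmd12, a lid subunit, with 1.07-fold and Psma6 with 1.08-fold. Psmd12 was at 63.6, 79.9, 69.4 and 67.0 RPKM, and the wider spread of these unscaled levels shows the size of the scaling.

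Counts of members whose groups did not overlap were uneven, and they depended on the scaling. After scaling, both HDACi 4b libraries lay above both controls for 1 member, Psme4, against 13.5% of all tested genes, and below both controls for 11 members, against 14.7%. The 11 were Psmb3, Psmb4, Psmd3, Psmd7, Psmd8, Psmd10, Psmd11, Psme2, Psme2b, Psme3 and Psmg1. Their log2 fold changes ran from -0.48 for Psmb4 to -0.14 for Psmd7, and 10 of them had a limma unadjusted p over 0.05. With the libraries scaled by the median of ratios instead, 2 members lay above (Psmd1 and Psme4, against 14.4% of all genes) and 11 below (13.4%). With the levels as deposited, 2 members lay above (Psma1 and Psmb1, against 6.6% of all genes) and 8 below (16.8%), and Psme4 was not among them. The median log2 fold change of the members also moved with 1 library. It went from -0.01 to -0.15 without control replicate 2, where 4 of 41 were positive. Without control replicate 1 it was 0.06, and 25 of 41 were positive. The same values over all genes are not given for these fits, so whether the shift is particular to the members was not tested.

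Among the roles with several members, the non-ATPase subunits of the regulatory particle had the lowest median. Of the 10 tested, 3 were positive and 7 negative (median -0.16), and for 4 of the 10 both HDACi 4b libraries lay below both controls, against 14.7% of all tested genes. The role was picked by its median from the same values, so this count is no separate evidence. The ATPase ring had 4 positive and 2 negative members (median 0.02), and Psmc4 was its lowest at 77.9 and 75.2 RPKM in control oocytes and 57.9 and 60.9 RPKM after HDACi 4b. The alpha ring had 4 positive and 3 negative members (median 0.04) and the beta ring likewise 4 and 3 (median 0.01). The 3 base chaperones were all negative (median -0.15), and of the 3 tested core chaperones 2 were positive (median 0.02). Without scaling the medians were -0.23 for the non-ATPase subunits and -0.22 for the base chaperones, and those of the ATPase ring (-0.05), alpha ring (-0.03), beta ring (-0.06) and core chaperones (-0.05) turned negative, with all genes at -0.07. None of these counts was tested, and 0 members of any role passed the adjusted threshold.

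Genes that work with the proteasome but do not carry a Psm name likewise gave 0 calls. Of 32 such genes 29 were tested, with log2 fold changes above 0 for 16 and below 0 for 13 (median 0.02), and 0 passed. Ubb, a polyubiquitin gene, was by far the most abundant, at 4164 and 5362 RPKM in control oocytes and 4314 and 4460 RPKM after HDACi 4b. Of the remaining subunits, Sem1 was at 35.2 and 27.4 RPKM against 35.5 and 37.5 RPKM and the ubiquitin receptor Adrm1 at 17.7 and 16.1 RPKM against 15.8 and 12.6 RPKM. The core assembly factor Pomp was at 35.4 and 44.5 RPKM against 34.9 and 35.9 RPKM. The deubiquitinases of the regulatory particle were at similar levels to each other, with Usp14 at 15.9 to 19.3 RPKM and Uchl5 at 11.9 to 19.6 RPKM. Nfe2l1 was at 4.16 and 5.21 RPKM against 3.93 and 3.97 RPKM, and Akirin2, which carries proteasomes into the nucleus, at 66.6 and 95.6 RPKM against 81.6 and 75.3 RPKM. The smallest p on the lower side was that of Zfand2a, a stress-induced proteasome binding protein, at 2.08 and 2.70 RPKM against 1.79 and 1.31 RPKM (log2 fold change -0.53, SE 0.24). On the higher side it was that of Uba6, a ubiquitin activating enzyme, at 3.81 and 6.56 RPKM against 6.07 and 6.00 RPKM (0.33, SE 0.21).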

How the data were processed

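The authors deposited RPKM values in 1 table of 26631 rows, with a column for each of the 4 libraries, and 0 columns were left out. Bowtie 0.12.2 and the build mm8 are named in the submitters' notes. The counting tool, its strand setting and its handling of reads with several matches are not given in the sources consulted. Of the rows, 24967 had a name in GENCODE M21 (GRCm38). Whole reads came out for 22661 rows at its exonic lengths (tolerance 0.01 reads) and for 8 members at another length, so coordinates are from GENCODE M21. Library totals of 13478189 to 14903547 reads were recovered in this way. Limits from counts cover counting error only.

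Levels are as deposited. For the test they were divided by factors of 0.912 and 1.15 for the controls and 1.03 and 0.927 for HDACi 4b, from a trimmed mean of ratios (trimming 30% of ratios, 5% of levels). The test was limma 3.58.1 in R 4.3.3 on log2(RPKM + 0.1) with an intensity trend, two-sided, over the 9461 genes averaging 1 RPKM or more, with Benjamini-Hochberg adjustment and 6.43 degrees of freedom. This scale understates fold changes of low genes. An exact permutation test of 2 against 2 libraries cannot go below 0.333 and was not used. The fit was tested on simulated data, where false calls exceeded the nominal rate, mostly among low genes.

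Members and lists were chosen with earlier results of these data known. Named were the catalytic subunits and their counterparts, the 5 highest and 5 lowest tested members, the 3 with the smallest p in each direction, activators, chaperones, Psma7 with Psma8, and those of widest spread. Shared sequences, motifs, promoters, counts of highest and lowest libraries, and overlap counts and role medians under other scalings were added after seeing the values. Alternatives covered scaling, pseudocount, filter, limma-voom on recovered reads, the trend, a replicate block and each library left out.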

Additional observations from a re-analysis of the deposited data

How the results depend on the processing

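Under 13 alternatives, 0 proteasome genes passed the adjusted threshold. Over all genes the count of calls stayed at 0 except without HDACi 4b replicate 2, so that leaving out 1 library gave 0 to 5 genes. The 5 (Gm24975, Krt18, Calcoco2 and Gm22107 lower, Ighd2-7 higher) are no proteasome genes, were named after their values were seen, and rest on 1 HDACi 4b library assumed to vary like the controls. The member median of the log2 fold change was -0.01, ran from -0.15 (without control replicate 2) to 0.061 when 1 library was left out, and was -0.08 without scaling, which put the median of all genes at -0.07. Without scaling, Psma2 (-0.014), Psma7 (-0.0097) and Psmb5 (-0.059) turned negative. Leaving out 1 library turned the sign of 7 of the 13 recomputed members, over ranges of -0.015 to 0.51 for Psma1, -0.36 to 0.47 for Psma2, -0.36 to 0.48 for Psma7, -0.34 to 0.58 for Psmb2, -0.10 to 0.11 for Psmb5, -0.053 to 0.58 for Psmb7 and -0.56 to 0.41 for Psmd4. The other 6 kept their sign, Psmb4 between -0.55 and -0.41, Psmb6 between -0.22 and -0.02, Psmd8 between -0.68 and -0.08, Psmd10 between -0.21 and -0.08, Psme2b between -0.47 and -0.21 and Psme4 between 0.21 and 0.29. Depth limits the genes of few reads, such as Psmb9 and Psme1.

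Samples of the 2 groups share replicate numbers, but same-numbered libraries did not deviate together (r = 0.05 over 9461 genes). Over the 41 tested members alone r was -0.35. With the replicate number as a block the count of calls was 0 genes and 0 members, and the member median was -0.01.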
